A study of Homo sapiens with 6 samples.

Results

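Integrins, laminins and the other genes of adhesion to matrix were followed in HES3 cells treated with Activin A alone or together with BMP4. The group holds 42 listed genes: integrin subunits, laminin chains, nidogens, the ligands fibronectin and vitronectin, the hyaluronan receptor CD44 and genes of focal adhesions. Members were found by their gene symbol in the platform annotation, which matched 63 probes to 39 of the 42 genes, out of 16922 genes with a symbol on the array. ITGA9, ITGA11 and LAMA3 matched no probe and were not analysed here. HES3 is a line of human embryonic stem cells, so all arrays come from 1 line. The cells had been grown on irradiated human feeder cells, and a cell strainer removed most feeders before the experiment, typically 90% per the labels. They were then plated on fibronectin, kept in stem cell medium, and moved to endoderm differentiation medium for 3 days. The first treatment was Activin A at 50 ng/ml, a ligand of the Nodal receptors, and the second added BMP4 (bone morphogenetic protein 4) at 50 ng/ml to the same dose of Activin A. Each treatment has 3 arrays. The protocol text lists Activin A and BMP4 for all samples alike, and only titles and source names tell the treatments apart. The series calls the replicates biological, and nothing more is said of separate cultures.

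Integrins are surface receptors made of an alpha and a beta chain that bind matrix proteins outside the cell and, through talin and vinculin, the actin cytoskeleton inside it. The pair of chains sets the ligand. ITGA5 and the ITGAV pairs bind the RGD motif of fibronectin and vitronectin, ITGA3, ITGA6 and ITGA7 bind laminins, and ITGA1, ITGA2, ITGA10 and ITGA11 bind collagens. Most of these alpha chains pair with ITGB1. Laminins are trimers of an alpha, a beta and a gamma chain and form basement membranes, to which nidogens bind. Human embryonic stem cells attach to laminin and fibronectin through such receptors, and cells that leave the epiblast in gastrulation cross and remodel a basement membrane.

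Values are normalized log2 intensities of single probes, and a probe counts as detected on an array when its detection p is under 0.01. The arrays detected 9348 to 10460 probes each. Across tested probes, arrays correlated at 0.985 or more within treatments. A gene was tested if a probe was detected on at least 3 of the 6 arrays, and it is represented by its brightest tested probe. Each difference subtracts the Activin A mean from the Activin A + BMP4 mean and comes from limma, with adjusted p-values over all tested probes and a threshold of 0.05. The signal columns are named by a number and a letter, and the number was read as the chip. Each chip so read carried 1 treatment, with Activin A + BMP4 on 2 chips. A chip effect and the treatment therefore cannot be told apart. Of 8 markers each of pluripotency and of definitive endoderm, 7 and 8 matched probes by the listed symbols and were detected on at least 1 array. The pluripotency marker TDGF1 was tested under its current symbol CRIPTO, did not match by name and is left out of the counts below. The cell state markers differed between the treatments: of 7 tested in each list, 6 endoderm markers were higher with BMP4 (SOX17 by 2.85) and 0 lower, and 4 pluripotency markers were lower and 1 higher (SOX2 differed by -3.27). The part of this shift in the adhesion genes was not tested. Over all tested genes, 17.6% were higher and 18.1% lower. Markers of fibroblasts moved with the treatment as well. Of 19 tested fibroblast markers 17 were lower with BMP4 and 0 higher, with a median difference of -1.53. All but HOXC6, which entered the test through the Activin A arrays alone, were detected with both treatments. Their summed linear intensity ran from 77949 to 91874 on the Activin A arrays and from 28245 to 29980 on the Activin A + BMP4 arrays. THY1, DCN and COL1A1 were detected on all 6 arrays, and POSTN, TBX5 and FBN1 on none. In such mixed RNA, fewer cells of a type and less RNA per cell cannot be told apart, and the part of feeder cells in the falls below was not tested.

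With BMP4, more adhesion genes were lower than higher. Of the 39 genes on the array 28 were tested. Lower levels passed the threshold in 11 of these and higher levels in 3, and 14 did not pass. The lower genes were ITGA2, ITGA3, ITGB1, LAMB3, LAMC1, NID1, FN1, CD44, TLN1, VCL and ZYX. The higher ones were ITGA5, ITGB5 and LAMA1. Of the lower genes, LAMB3 entered the test through the Activin A arrays alone. Over all 8186 tested genes 35.8% passed, 18.1% lower and 17.6% higher, beside 39.3% lower and 10.7% higher among the members. The median difference over the 28 genes was -0.11, against 0.00193 over all tested genes. The arrays of both treatments were fully separated for 14 of the 28 genes, a share like the 50.2% among all tested genes. The 11 genes on the array that were not tested stay out of these counts. ITGA1, ITGA8, ITGB6, ITGB8, LAMA4 and VTN had no probe detected on any array, and ITGA4, ITGA10, ITGB3, ITGB4 and NID2 were detected on 1 or 2 arrays.

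**Figure D1:**
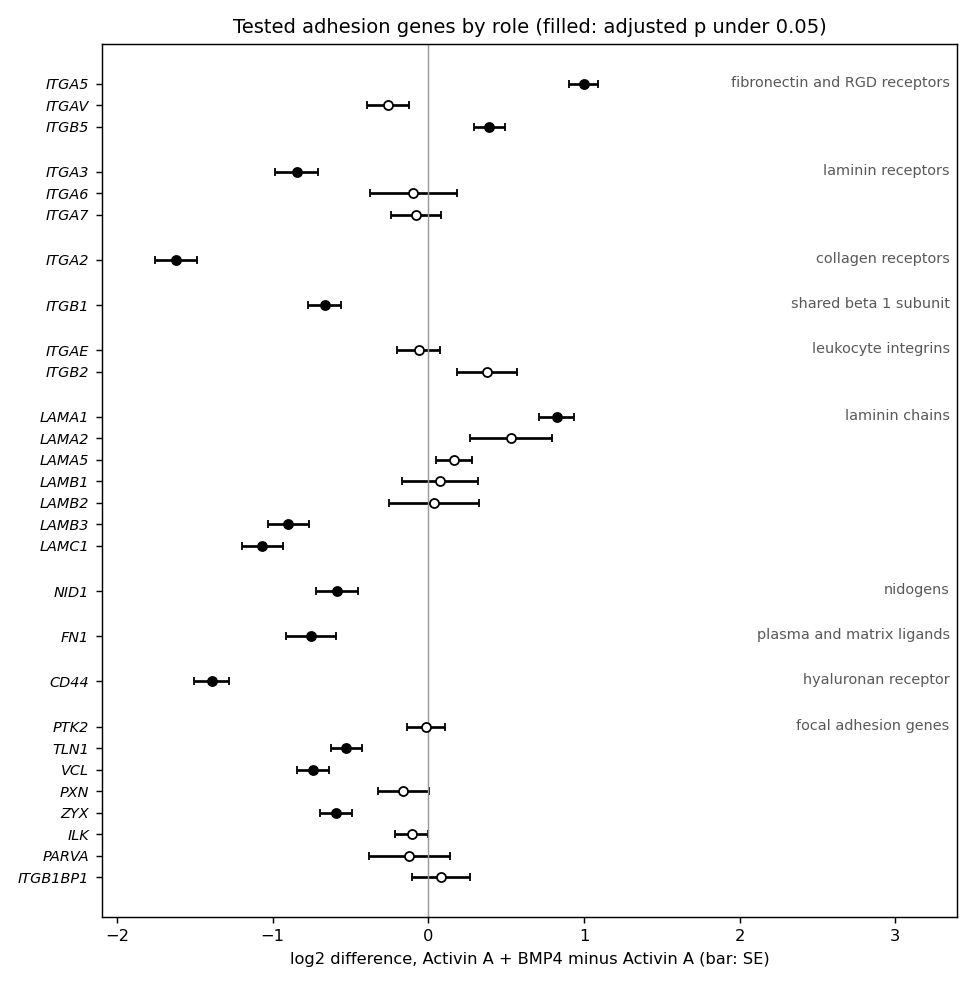
Log2 differences, Activin A + BMP4 minus Activin A, of the 28 tested adhesion genes, each with its standard error from limma and ordered by role. Filled points passed the adjusted threshold. ITGA5 and LAMA1 lie farthest to the right at 1.00 and 0.83, and ITGA2 and CD44 farthest to the left at -1.62 and -1.39.

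Among receptors for fibronectin and other RGD ligands, 3 chains were tested and the 2 called ones were higher. This is 66.7%, beside 17.6% of all tested genes. ITGA5, the alpha chain of the main fibronectin receptor, read 10.01, 10.09 and 10.11 with Activin A and 11.03, 11.10 and 11.06 with BMP4. The treatments were separated by far more than the spread among arrays, with a difference of 1.00 ± 0.09 SE (n = 3 against 3, limma adjusted p = 1.01e-04). ITGB5, a partner of ITGAV and a vitronectin receptor chain, read 13.72, 13.70 and 13.82 with Activin A and 14.22, 14.15 and 14.05 with BMP4. Its difference was 0.39 ± 0.10 SE (limma adjusted p = 0.0163), and its other tested probe differed by 0.84 ± 0.15 SE (limma adjusted p = 0.00360). The call of the brighter ITGB5 probe was lost under median scaling (limma adjusted p = 0.0836), with the authors' processed values (0.139) and without any 1 of 4 arrays (0.0521 to 0.0529), namely Activin A replicates 1 and 2 and Activin A + BMP4 replicates 1 and 2.

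ITGAV itself, the alpha chain shared by the vitronectin receptors, read 10.83, 10.72 and 10.55 with Activin A and 10.35, 10.30 and 10.68 with BMP4. The groups overlapped and its difference of -0.26 ± 0.13 SE did not pass (limma adjusted p = 0.171). Of the other RGD receptor chains, ITGB3, which with ITGAV binds several RGD ligands, had deposited signals of 51.2, 59.2 and 60.0 with Activin A and 20.7, 8.4 and -2.3 with BMP4. ITGB3 was detected on 2 arrays of the first group and 0 of the second, too few to be tested. ITGA4, whose pair with ITGB1 binds an alternatively spliced segment of fibronectin, lay the other way round. Its signals were 19.5, 36.3 and 37.6 with Activin A and 52.6, 79.9 and 64.6 with BMP4, detected on 0 and 2 arrays. With BMP4, where it was not detected, ITGB3 was at least 1.09-fold lower (1.05-fold with normexp). ITGA4, not detected with Activin A alone, was at least 1.24-fold higher with BMP4 (1.12-fold with normexp). Neither passed the filter for the main test. With no filter their differences were -1.15 for ITGB3 and 0.75 for ITGA4 (limma adjusted p = 0.00217 and 0.0374), from mostly undetected values.

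ITGB1, the beta chain shared by most matrix receptors, was lower with BMP4. It read 13.76, 13.72 and 13.78 with Activin A and 13.08, 12.97 and 13.21 with BMP4, so every Activin A array was above every array with both factors. The difference was -0.67 ± 0.10 SE (limma adjusted p = 0.00147), and a second tested probe differed by -0.95 ± 0.11 SE (limma adjusted p = 2.45e-04). ITGA5 thus rose while ITGB1, its obligate partner, fell. On the same arrays ITGA5 changed by 1.66 more than ITGB1, and every array with BMP4 had a larger ratio of the 2 probes than every Activin A array (exact permutation test, two-sided, p = 0.1, the smallest that 3 against 3 allow; adjusted p = 0.125 over 5 pairs of partner chains). ITGB5 changed by 0.65 more than ITGAV (exact permutation p = 0.1; adjusted p = 0.125). With 3 arrays against 3 the permutation test cannot pass the threshold used here, so it decides none of the 5 pairs. By limma, ITGA5 and ITGB1 were called in opposite directions, whereas ITGAV, the partner of ITGB5, was not called. The values are of transcripts and say nothing of receptor numbers at the surface.

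The collagen receptor ITGA2 fell the most of all tested members. ITGA2, the alpha chain of a receptor for collagen and in some cells laminin, read 8.63, 9.01 and 8.56 with Activin A and 7.17, 7.08 and 7.09 with BMP4. It was 3.07-fold lower, a difference of -1.62 ± 0.13 SE (limma adjusted p = 5.25e-05). Relative to ITGB1 it changed by -0.95 (exact permutation p = 0.1; adjusted p = 0.125). The other collagen receptor chains gave no test. ITGA1 was detected on 0 arrays, and ITGA10, a collagen receptor known from cartilage, on 1 Activin A array.

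Receptors for laminin gave 1 call, a lower one, among 3 tested chains, or 33.3% beside 18.1% of all tested genes. ITGA3, the alpha chain of a receptor for the laminins that carry LAMA5, read 8.71, 8.79 and 8.79 with Activin A and 7.71, 7.84 and 8.20 with BMP4. The groups did not overlap and the difference was -0.85 ± 0.14 SE (limma adjusted p = 0.00180). Its change differed from that of ITGB1 by -0.18 (exact permutation p = 0.2; adjusted p = 0.2). ITGA6, a laminin receptor chain of embryonic stem cells, was dim and spread widely, at 6.12, 7.00 and 6.45 with Activin A and 6.28, 6.03 and 6.97 with BMP4. The ITGA6 difference of -0.10 ± 0.28 SE did not pass (limma adjusted p = 0.819). ITGA7, best known from muscle, differed by -0.08 ± 0.16 SE (limma adjusted p = 0.744). ITGB4, the partner of ITGA6 in hemidesmosomes, had 4 probes, of which 1 was detected on 1 array.

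The leukocyte chains ITGAE and ITGB2 did not pass. ITGB2, the common beta chain of leukocyte integrins, read 6.23, 5.98 and 6.24 with Activin A and 6.72, 6.80 and 6.07 with BMP4, a difference of 0.38 ± 0.19 SE (limma adjusted p = 0.167). Without Activin A + BMP4 replicate 3, the low array of its group, it differed by 0.61 and passed (limma adjusted p = 0.0106). ITGAE, a chain of the receptor by which some T cells bind E-cadherin, differed by -0.06 ± 0.14 SE (limma adjusted p = 0.761). Of 5 leukocyte markers on the array, PTPRC, which defines leukocytes, was detected on 0 arrays with each of its 3 probes, and CD3E, a T cell gene, on 1. CD68 was detected on all 6 arrays and LYZ on 5, and neither passed (limma adjusted p = 0.805 and 0.101). CD14 was detected on 4 arrays and was lower (difference -0.43, limma adjusted p = 0.0477). Their part in the ITGB2 values was not tested.

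**Figure D2:**
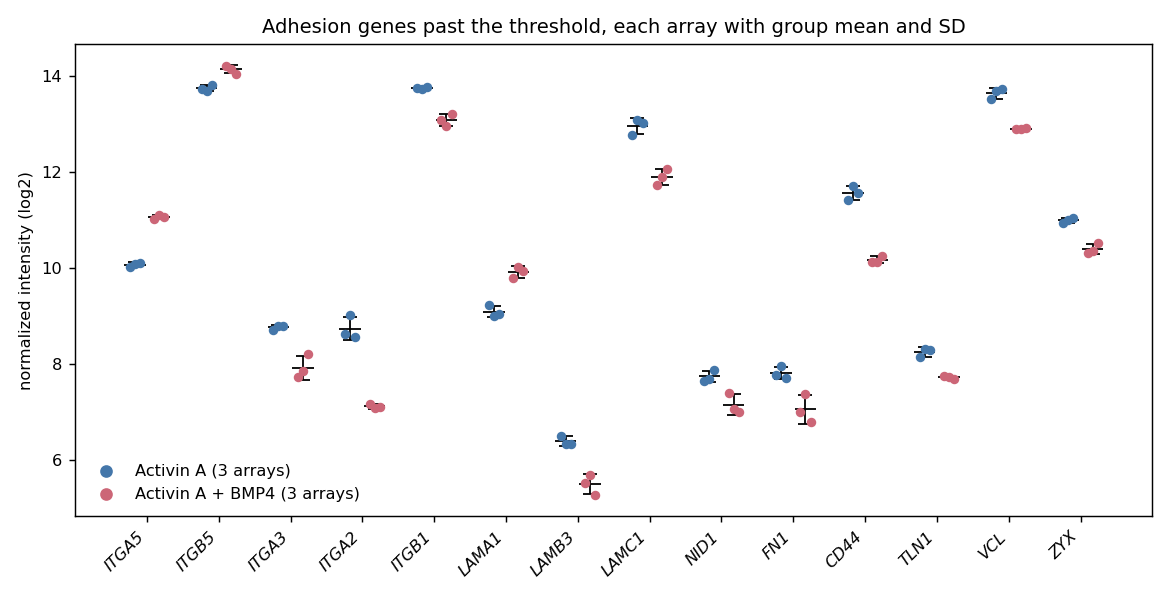
Normalized log2 intensity on each array for the 14 adhesion genes past the threshold, with the mean and SD of each group of 3 arrays. In each of the 14 genes the 3 Activin A arrays and the 3 Activin A + BMP4 arrays do not overlap. The genes were picked by their calls, which favours such separation, and 50.2% of all tested genes do not overlap either. Levels of different genes come from different probes and are not comparable.

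The starts of ITGA5, ITGB1 and ITGA2 are shown because ITGB1 pairs with both alpha chains, and ITGA5 rose while ITGA2 and ITGB1 fell. Each line gives the 250 bases before the gene's first listed start, 5′ to 3′ on the gene's strand, from RefSeq on GRCh38.p14. Capitals mark matches on either strand to 5 motifs: GGGCGG, the GC box bound by SP factors, GGAATG, a core bound by TEAD factors, GGCGCC, a GC-rich element of BMP-responsive SMADs, TGANTCA, the AP-1 site, and the CArG box of serum response factor. Matches to different motifs did not overlap in these sequences. ITGA5 lies at chr12:54419267-54419516 on the minus strand, ITGB1 at chr10:32958231-32958480 on the minus strand and ITGA2 at chr5:52989102-52989351 on the plus strand.
ITGA5: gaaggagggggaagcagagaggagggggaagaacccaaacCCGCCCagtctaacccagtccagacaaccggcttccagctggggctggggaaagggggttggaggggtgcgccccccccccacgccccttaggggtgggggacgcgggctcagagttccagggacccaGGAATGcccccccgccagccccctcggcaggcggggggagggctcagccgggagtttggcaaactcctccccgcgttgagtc
ITGB1: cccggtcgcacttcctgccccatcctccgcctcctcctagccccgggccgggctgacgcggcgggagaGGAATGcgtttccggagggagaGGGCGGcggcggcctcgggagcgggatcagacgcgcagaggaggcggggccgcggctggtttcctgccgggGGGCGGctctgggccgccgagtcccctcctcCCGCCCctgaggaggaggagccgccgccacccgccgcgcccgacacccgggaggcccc
ITGA2: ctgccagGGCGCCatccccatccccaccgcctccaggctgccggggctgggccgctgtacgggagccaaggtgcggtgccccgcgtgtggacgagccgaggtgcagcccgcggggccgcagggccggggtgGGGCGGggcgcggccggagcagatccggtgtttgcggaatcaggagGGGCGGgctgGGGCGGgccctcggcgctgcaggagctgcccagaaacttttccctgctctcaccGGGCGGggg
ITGA5 and ITGB1 each held 1 GGAATG, 82 and 182 bases before the start, and ITGA2 held none. ITGA5 held 1 copy of GGGCGG, ITGB1 3 and ITGA2 4, and ITGA2 also held 1 GGCGCC. Of 42 listed members 33 had an entry, among them 12 of the 14 called genes. All 12 held a GGGCGG, as did 5 of the 10 tested members that were not called, 68.2% of the windows of 6807 tested genes and 42.3% of 27305 windows in all. A GGAATG was present in 3 of the 12, in ITGA5, ITGB1 and VCL, in 1 of the 10 uncalled members and in 9.26% of tested genes' windows. A GGCGCC was present in 4 of the 12, in 4 of the 10 and in 26.3%. Neither TGANTCA nor a CArG box was found in the 12. The uncalled members held them in 0 and 1 of 10, and tested genes in 3.75% and 1.12% of windows. No test was made of these counts, and a match is not evidence of binding.

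Among laminin chains 1 of 7 tested was higher and 2 were lower, or 14.3% and 28.6% beside 17.6% and 18.1% of all tested genes. LAMA1, the alpha chain of the laminin of the early embryo, was higher, and the gamma chain LAMC1 and the beta chain LAMB3 were lower. LAMA1 read 9.22, 9.01 and 9.05 with Activin A and 9.79, 10.02 and 9.94 with BMP4, a difference of 0.83 ± 0.11 SE (limma adjusted p = 7.22e-04). Its other probe differed by 0.71 ± 0.12 SE (limma adjusted p = 0.00219). LAMC1, the gamma chain of most laminins, read 12.77, 13.08 and 13.03 with Activin A and 11.73, 11.89 and 12.06 with BMP4. All arrays with both factors were below all Activin A arrays, with a difference of -1.07 ± 0.13 SE (limma adjusted p = 3.93e-04). LAMA1 changed by 1.89 more than LAMC1, with which it assembles (exact permutation p = 0.1; adjusted p = 0.125).

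LAMB3, the beta chain of the laminin of skin and other epithelia, was dim. Its tested probe read 6.50, 6.33 and 6.33 with Activin A and 5.52, 5.68 and 5.27 with BMP4, where it was detected on 0 arrays. It was therefore at least 1.26-fold lower, or at least 1.13-fold after normexp background correction. The fitted difference of -0.90 (limma adjusted p = 9.84e-04) rests on undetected values with BMP4, and was -0.46 under normexp. It entered the test through the 3 Activin A arrays alone, and its other probes were not detected.

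The remaining chains showed no call. LAMA5, the alpha chain of the main laminin made by human embryonic stem cells, read 12.36, 12.21 and 12.42 with Activin A and 12.34, 12.55 and 12.59 with BMP4, a difference of 0.17 ± 0.11 SE (limma adjusted p = 0.298). LAMB1, the beta chain of that laminin, was even with Activin A, at 7.19, 7.28 and 7.23, and ran from 6.78 over 7.24 to 7.91 with BMP4. The highest LAMB1 value was on replicate 3, which was on a chip of its own, and the difference of 0.07 ± 0.25 SE did not pass (limma adjusted p = 0.842). LAMB2, a beta chain of neuromuscular and kidney basement membranes, likewise spread from 7.00 to 8.22 with BMP4 (difference 0.04 ± 0.29 SE, limma adjusted p = 0.939). LAMA2, the alpha chain of muscle laminin, differed by 0.53 ± 0.26 SE and did not pass (limma adjusted p = 0.151).

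The tested nidogen and the tested matrix ligand, NID1 and FN1, were lower. NID1, nidogen 1, which links laminin to collagen IV, read 7.65, 7.68 and 7.88 with Activin A and 7.40, 7.05 and 6.99 with BMP4, a difference of -0.59 ± 0.14 SE (limma adjusted p = 0.0105). FN1, which encodes fibronectin, the protein on which the cells had been plated, read 7.76, 7.95 and 7.71 with Activin A and 6.99, 7.38 and 6.78 with BMP4. The FN1 groups did not overlap, and the difference was -0.75 ± 0.16 SE (limma adjusted p = 0.00706) or -0.62 ± 0.15 SE by its other tested probe (limma adjusted p = 0.0136). NID2 was detected on 1 Activin A array, and VTN, the vitronectin gene, on 0 arrays. The array measures transcripts, so the fibronectin coated on the plates does not enter the FN1 values.

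CD44, the hyaluronan receptor, was lower by all 3 of its probes. The brightest read 11.42, 11.70 and 11.56 with Activin A and 10.13, 10.12 and 10.26 with BMP4, a difference of -1.39 ± 0.11 SE or 2.62-fold (limma adjusted p = 4.31e-05). A second probe read 7.47, 7.30 and 7.35 with Activin A and was detected on 0 arrays with BMP4. It was at least 2.50-fold lower, or 1.76-fold with normexp. This probe entered the test through the Activin A arrays alone. Its fitted difference of -1.46 (limma adjusted p = 5.35e-05) rests on undetected values with BMP4. The third differed by only -0.59 ± 0.15 SE (limma adjusted p = 0.0161). CD44, FN1 and ITGB1 are known to be made by fibroblasts too, and the summed fibroblast marker level given above fell on the same arrays. What part of their falls belongs to the feeders was not tested.

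**Figure D3:**
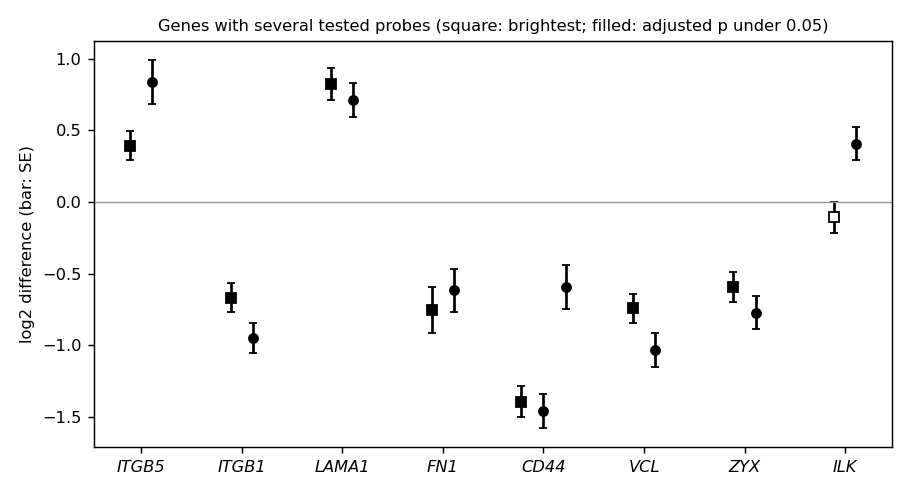
Log2 differences with standard errors of the 8 adhesion genes that had several tested probes. Squares are the brightest probe of the gene and filled points passed the threshold. In 7 genes all tested probes passed in 1 direction, though a CD44 probe entered the test through the Activin A arrays alone. In ILK the brightest probe lay at -0.11 and did not pass while the other lay at 0.41.

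Of 8 tested focal adhesion genes 3 were lower, TLN1, VCL and ZYX, and 5 did not pass. That is 37.5% lower and 0 higher, beside 18.1% and 17.6% of all tested genes. TLN1, talin, which binds and activates integrin beta chains, read 8.14, 8.31 and 8.30 with Activin A and 7.74, 7.73 and 7.69 with BMP4, a difference of -0.53 ± 0.10 SE (limma adjusted p = 0.00400). VCL, vinculin, which joins talin to actin, read 13.52, 13.68 and 13.72 with Activin A and 12.90, 12.89 and 12.92 with BMP4. Its groups stood well apart at -0.74 ± 0.10 SE (limma adjusted p = 7.52e-04), and its other tested probe differed by -1.03 ± 0.12 SE (limma adjusted p = 2.57e-04). ZYX, zyxin, found at adhesions under tension, read 10.93, 11.00 and 11.04 with Activin A and 10.32, 10.35 and 10.52 with BMP4. Its difference was -0.59 ± 0.10 SE, and -0.77 ± 0.11 SE by the other probe (limma adjusted p = 0.00264 and 0.00111).

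The 250 bases before VCL, at chr10:73997866-73998115 on the plus strand of GRCh38.p14, are shown as the start of a focal adhesion gene that fell and the third called member with a GGAATG, with capitals as above.
VCL: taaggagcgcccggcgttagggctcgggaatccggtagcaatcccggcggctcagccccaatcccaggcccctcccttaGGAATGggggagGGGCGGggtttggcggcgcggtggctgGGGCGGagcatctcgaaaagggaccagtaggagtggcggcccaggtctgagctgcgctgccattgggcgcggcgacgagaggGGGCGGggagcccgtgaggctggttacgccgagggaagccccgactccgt
The VCL window held its GGAATG 171 bases before the start and 3 copies of GGGCGG, at 159, 132 and 50 bases.

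PTK2, focal adhesion kinase, did not pass and its groups overlapped, at 11.82, 11.43 and 11.64 with Activin A and 11.62, 11.56 and 11.67 with BMP4 (difference -0.02 ± 0.12 SE, limma adjusted p = 0.938). PXN, the adaptor paxillin, differed by -0.16 ± 0.16 SE (limma adjusted p = 0.479). ILK, integrin-linked kinase, and PARVA, the parvin with which it forms a complex, differed by -0.11 ± 0.11 SE and -0.12 ± 0.26 SE (limma adjusted p = 0.469 and 0.751). The probes of ILK disagreed, since a dimmer one read 6.62, 6.58 and 6.59 with Activin A and 7.13, 6.82 and 7.07 with BMP4 and passed as higher (0.41 ± 0.11 SE, limma adjusted p = 0.0223). ITGB1BP1, which binds the tail of ITGB1 and competes with talin, differed by 0.08 ± 0.19 SE (limma adjusted p = 0.774). With these errors, changes of the size seen in TLN1 cannot be told from none for PARVA.

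Other genes of the pathway that are not members were read beside them. Of 23 tested genes of the adhesion complexes, 3 rose and 7 fell, or 13.0% and 30.4% beside 17.6% and 18.1% of all tested genes, and their median was -0.28. The largest falls were in LPXN, a relative of paxillin, by 1.78, in CSRP1, a LIM protein of the actin cytoskeleton, by 1.01, and in BCAR1, the scaffold p130Cas, by 0.86 on the log2 scale. The rises were in the kinase gene SRC, by 0.76, in FERMT2, a kindlin that activates integrins, by 0.63, and in the phosphatase gene PTPN12, by 0.37. Their largest limma adjusted p was 0.0353, for PTPN12. LIMS1 and RSU1, partners of ILK, were lower by differences of -0.69 and -0.63 (limma adjusted p = 0.00162 and 0.00208).

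Of 11 tested basement membrane genes outside the member list, 4 rose, 1 fell and 6 did not pass, or 36.4% higher and 9.09% lower beside 17.6% and 18.1% of all tested genes. Their median was 0.11. NTN4, a netrin that binds laminin gamma chains, was higher by 1.86 ± 0.24 SE (limma adjusted p = 5.56e-04), and the collagen IV chains COL4A6 and COL4A5 by 1.54 ± 0.11 SE and 0.84 ± 0.11 SE (limma adjusted p = 2.56e-05 and 5.61e-04). SPARC, a collagen-binding matrix protein, was lower by 0.38 on the log2 scale (difference -0.38, limma adjusted p = 0.0266). Of 13 tested integrin ligands other than FN1, 12 fell and 0 rose (median -0.86), beside the same 18.1% and 17.6% of all tested genes. EMILIN1, counted among the 12, entered the test through the Activin A arrays alone and was at least 1.30-fold lower (1.15-fold with normexp). TNC, tenascin C, was the one that did not pass (limma adjusted p = 0.885). THBS2 and THBS1, which encode thrombospondins, differed by -2.23 and -1.81, and CCN1, a secreted ligand of ITGAV pairs, by -1.39 (limma adjusted p = 2.10e-05, 1.68e-05 and 6.99e-05). Thrombospondins are also products of fibroblasts, whose markers had a median of -1.53 on these arrays. The part of such cells in the falls of the ligands was not tested. Of the 9 further integrin and laminin chains outside the list, 8 matched probes, LAMC3 alone was tested, and it did not pass (limma adjusted p = 0.215).

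**Figure D4:**
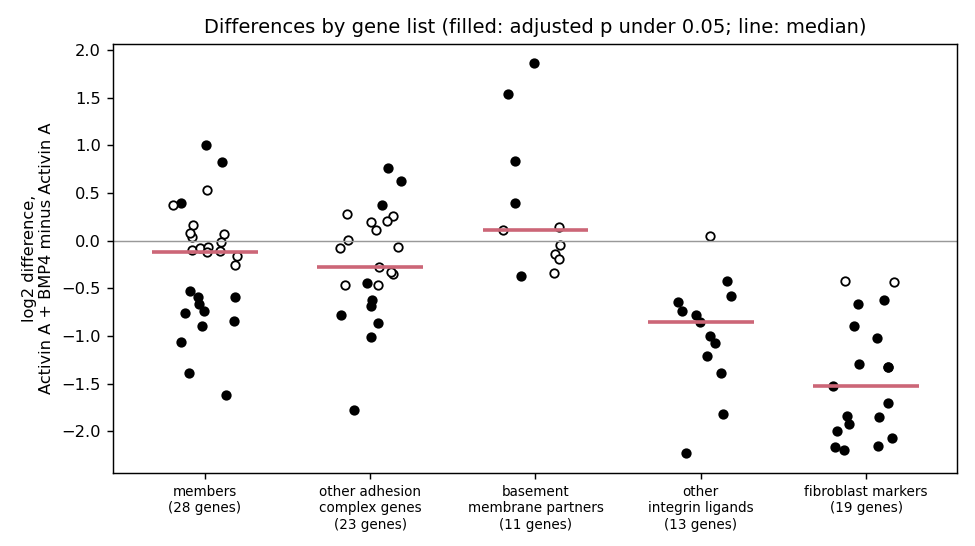
Log2 differences, Activin A + BMP4 minus Activin A, of tested genes in 5 lists, with filled points past the threshold and a line at each list's median. The members scatter on both sides of 0 around -0.11, basement membrane partners reach 1.86, and the other integrin ligands and the fibroblast markers lie lower, at medians of -0.86 and -1.53.

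Endothelial markers were read because ITGA5 and laminins are also known from vessels. TEK and VWF were higher among 3 tested endothelial markers, or 66.7% beside 17.6% of all tested genes, and the median was 0.92. PECAM1 and CDH5, which define endothelium, were detected on 0 arrays. A part of endothelial cells in the rise of ITGA5 was not tested.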

How the data were processed

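Transcripts of HES3 cells were measured on 6 Illumina bead arrays, 3 per treatment. The deposited intensity values are linear, and the authors left them non-normalized per the file headers. Between 22.2% and 24.6% of an array's values were negative, so background had been subtracted. The deposited detection score is headed a p-value but rose with the signal (rank correlation at least 0.98), and was read as 1 minus p. The authors' deposited processed table holds log2 values: for 6507 probes with signals above 100 it matched log2 of the signal to within 1.20e-06 once 1 constant per probe and per array was removed. The baseline of each probe stays unknown. The scanner software was not named in the labels or headers.

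Signals were normalized with neqc (offset 16) in limma 3.58.1 under R 4.3.3. Probes detected at p under 0.01 on at least 3 arrays were tested, 10116 of 24526, with lmFit and eBayes, treatment as the only term and Benjamini-Hochberg adjustment. The platform annotation gave 1 symbol for 21834 probes, none for 2692 and several for 0. By gene ID, 21813 probes matched a RefSeq gene table and took its symbol, which changed the symbol of 0 member probes. A bound for a group without detection takes, per array, the higher of the lowest detected value and the probe's own. The number of arrays limits the precision.

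Every member could be named, and of the other pathway lists the 3 largest called differences per direction; LIMS1, RSU1, TNC, EMILIN1 and LAMC3 were named after their values were seen. The members, lists and motifs were chosen with earlier results of these data known. Alternatives changed background correction, normalization, filter, arrays, blocks and probes. Replicate numbers were not taken as pairs, because arrays that share a number deviated from their group means with correlations of 0.03, -0.03 and -0.05. The fit was also run on simulated data built from the probe means and spread of these arrays. Of 10116 simulated probes 200 were changed, a far smaller share than the 35.8% of real tested genes that passed. In this setting the fit recovered 28.1% of changes of 0.5, 79.0% of 1 and 97.9% of 2 on the log2 scale. Of all its calls 5.61% were false. With few changed probes the adjusted threshold is stricter, so these shares need not hold for the real test. LAMA2, at 0.53 ± 0.26 SE, did not pass, so a member without a call can still hold a change near 0.5.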

Additional observations from a re-analysis of the deposited data

How the results depend on the processing

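Members called stayed at 11 lower under the alternatives that changed normalization, background correction or blocks or left out 1 array. They came to 10 with detection on all 6 arrays, which drops LAMB3, and to 12 with no filter, which adds the dim ITGB3. The block by chip cannot take out a chip effect, because each chip as read carried 1 treatment. Members higher numbered 2 to 4 over the alternatives by gene, and ITGB5 was the called member that could lose its call. Of 422 comparisons of a member with an alternative, 398 kept direction and side of the threshold, 6 lost a call, all in ITGB5, 1 gained one, in ITGB2, and 17 changed sign, none of them in a called member. Counted by probe, 6 of 37 tested member probes were higher and 17 lower, since 8 genes have several. Among the lower ones, the LAMB3 probe and a CD44 probe entered the test through the Activin A arrays alone. By gene, 17.6% of all tested genes were higher and 18.1% lower, and shares over all probes are not given here. The second ILK probe differed by 0.41 where the first differed by -0.11. Leaving out 1 array gave 2 to 4 members higher and 11 lower, and 1126 to 1277 genes higher and 1216 to 1341 lower over the whole array. The uncalled members whose sign changed ranged from -0.37 to 0.14 (ITGA6), -0.193 to 0.0799 (ITGA7), -0.158 to 0.0614 (ITGAE), -0.10 to 0.25 (ITGB1BP1), -0.23 to 0.34 (LAMB1), -0.23 to 0.38 (LAMB2), -0.33 to 0.12 (PARVA), -0.115 to 0.0809 (PTK2) and -0.299 to 0.00873 (PXN). With the replicate block 3 members were higher and 11 lower, and 1369 genes were higher and 1358 lower over the array. The median over all tested probes stayed between -0.0253 and 0.00732 under each scaling. Signal over background limits dim members, which have bounds or no test.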
